A study of Homo sapiens with 30 samples.

Results

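Collagen alpha chains were followed by RNA-Seq in the neuroblastoma (NB) line SH-EP and in 4 MYCN-expressing lines made from it. The chains were taken as every gene of the expression table whose symbol is COL, a number, the letter A, and a number, which gave 44 of the 26228 genes. The parental line, SH-EP, is a long-established human line with a mesenchymal identity, and the derived lines carry WT MYCN, MYCN T58A, MYCN S62A, or MYCN with both changes (T58A S62A), in each case stably introduced by retrovirus and driven by an exogenous promoter. Parental SH-EP cells and the 4 MYCN lines were each treated for 6 hours with DMSO or with 1 μM CYC065, an inhibitor of CDK9 and CDK2, and 3 libraries per group gave 30 libraries in 10 groups. Each MYCN genotype is 1 line, so a genotype and the history of its line cannot be told apart. The groups address which collagen genes differ when MYCN is introduced, which differ with the altered phosphorylation sites, and what a short block of CDK9 and CDK2 does to their transcripts.

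Collagens are extracellular proteins of 3 alpha chains wound into a triple helix, built from 1 gene's product alone or from the products of several genes. Fibril-forming collagens such as types I, III, and V give connective tissue its tensile strength, type IV forms the sheet of basement membranes, type VI forms beaded microfilaments around cells, and fibril-associated chains decorate the surface of fibrils. Mesenchymal cells are the main makers of fibrillar collagen, and in NB the mesenchymal state is marked by matrix genes of this kind, whereas the adrenergic state is not. CDK9 phosphorylates RNA polymerase II and releases it into elongation, so its inhibition lowers much of a cell's new messenger RNA.

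MYCN was listed at 0 in all 6 SH-EP libraries and at 5.08 to 20.1 FPKM (fragments counted per kilobase of transcript and scaled to library size) in those of the MYCN lines. The mesenchymal label was borne out by VIM (1305 to 4599 FPKM over the 30 libraries), CD44 (147 to 442), and PRRX1 (21.6 to 117). YAP1 (18.1 to 36.3) and SNAI2 (4.64 to 21.9), also on the mesenchymal list, were lower. The adrenergic regulator PHOX2A was listed at 0 in all 30 libraries and DBH in 29. Of the other adrenergic markers given here, TH and ISL1 did not exceed 2.01 FPKM and GATA2 was at 5.26 to 22.4. No epithelial, blood, or endothelial marker on the list exceeded 0.327 FPKM, and KRT5 was listed at 0 throughout. A further mesenchymal marker, fibronectin (FN1), moved with many of the chains described here: in DMSO it was at 302, 305, and 301 FPKM in the SH-EP libraries and between 27.0 and 55.0 in those of the MYCN lines, and the part of such a shift in cell state in the collagen values was not tested. Every SH-EP library carries an index sequence that a MYCN-line library also carries, so library pool and the contrast of parental with MYCN cells cannot be told apart. Relative depth, read from the steps between low FPKM values with the deepest library as 1, was 0.473 to 1 in DMSO and 0.295 to 0.559 in CYC065, and read counts were not used here, so no counting interval is given. The labels number the libraries of a group as replicates without naming separate cultures, so p-values measure only the spread between these libraries, which may be technical. Libraries of a group are lettered a to c here, and values are given in that order.

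Of the 44 chains, 18 averaged 1 FPKM or more across the 30 libraries and were tested, and 26 did not. The tested chains were 5 of 11 fibril-forming, 3 of 10 fibril-associated, 4 of 6 basement membrane, 3 of 5 beaded filament, and 1 of 3 short-chain network chains, with the anchoring fibril chain COL7A1 and 1 of 2 multiplexins. Neither the 4 transmembrane collagens nor COL26A1 and COL28A1 passed. Among the 26 untested chains, the highest value in any library was 1.31 FPKM (COL8A2), only COL8A2 and COL13A1 exceeded 1 FPKM in any library, and COL6A5, COL6A6, COL9A1, and COL22A1 were listed at 0 in all 30. A value of 0 in a table of this kind can be a failed estimate. Of the untested chains known from cartilage, COL2A1, COL11A1, and COL10A1 stayed at or under 0.0856 FPKM. COL11A2, COL9A3, and COL9A2 reached 0.896, 0.883, and 0.429 FPKM.

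In parental SH-EP cells in DMSO, a pair of fibrillar genes held most of the collagen transcript. COL1A1 (chromosome 17, 48261462 to 48278993, minus strand in GRCh37), the alpha1 chain of type I collagen, was at 673, 646, and 594 FPKM and ranked 94th of all genes by its mean. COL3A1 (chromosome 2, 189839099 to 189877472, plus strand), the only chain of type III collagen, was at 530.5, 522, and 542 FPKM and ranked 120th. Together they made up 69.5% ± 0.407 (SD, n = 3) of the summed FPKM of the 44 chains, a sum of 1682 ± 41.3 FPKM. The next chain was COL5A2 at 149 ± 2.202, followed by COL6A1 at 68.0 ± 2.47, COL6A2 at 57.96 ± 1.34, and COL18A1 at 40.6 ± 2.09 (n = 3, mean ± SD). COL4A1 stood at 36.3 ± 1.13, COL4A2 at 32.6 ± 1.76, COL12A1 at 29.6 ± 1.37, COL6A3 at 29.2 ± 1.20, COL5A1 at 23.7 ± 0.725, and COL8A1 at 23.4 ± 1.07 FPKM, and within this group COL12A1 and COL6A3 overlapped, as did COL5A1 and COL8A1. The remaining tested chains ran from COL21A1 at 9.78 ± 0.467 and COL4A5 at 5.52 ± 0.305 down to COL7A1 at 1.09 ± 0.0668 and COL16A1 at 1.08 ± 0.0440 FPKM, and COL7A1 and COL16A1 overlapped. FPKM are scaled by transcript length, so these levels can be set beside each other.

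The partner of COL1A1 was nearly missing. Type I collagen is usually a heterotrimer of COL1A1 and COL1A2 products, with a homotrimer of the alpha1 chain as a rarer form. COL1A2 (chromosome 7, 94024207 to 94060539, plus strand) was at 0.232, 0.125, and 0.142 FPKM in the SH-EP libraries in DMSO and at 0.260, 0.248, and 0.221 FPKM in those of the WT line. It was highest in T58A, at 0.515, 0.360, and 0.460 FPKM in DMSO and 0.879, 0.690, and 0.736 in CYC065, and only T58A libraries exceeded 0.379 FPKM. In the S62A and T58A S62A lines it was listed at 0 in at least 1 library of each group. The COL1A1 level exceeded that of COL1A2 by 255-fold to 12598-fold in the libraries where COL1A2 was above 0. COL1A2 was too low for a test, and its low level was common to all 5 lines.

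**Figure D1:**
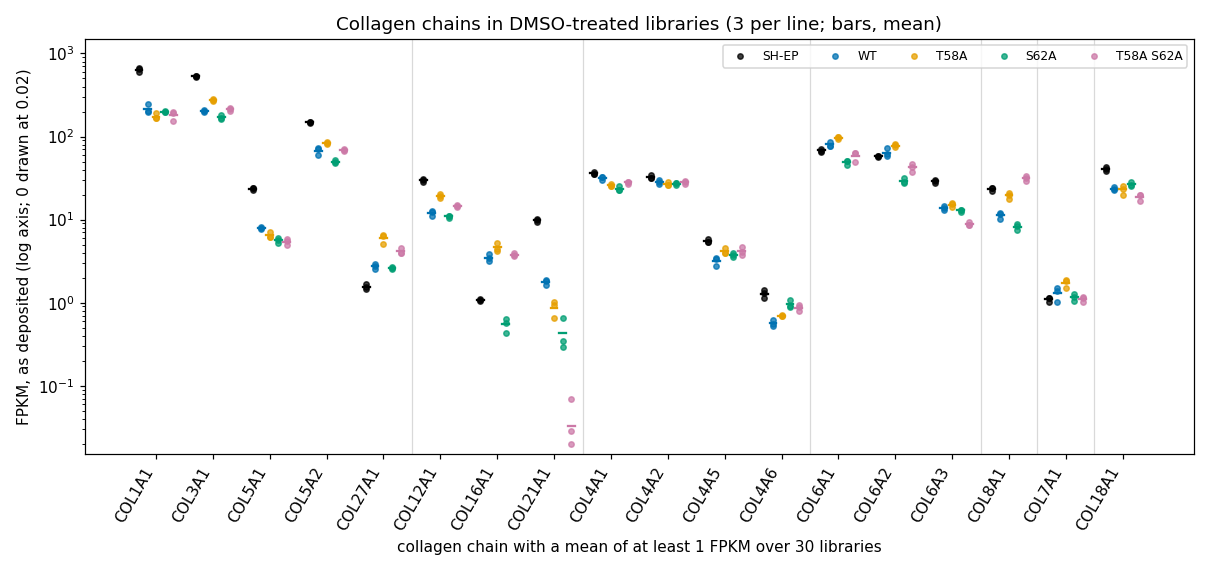
FPKM as deposited (log axis) of the 18 tested collagen chains in the 15 DMSO libraries, with a point per library, a bar at the mean of 3, and colors for the lines. Grey lines separate, from left, the fibril-forming, fibril-associated, basement membrane, beaded filament, short-chain network, anchoring fibril, and multiplexin chains. COL1A1 and COL3A1 are highest in every line, and COL21A1 falls from 9.78 FPKM in SH-EP to 0.0324 in T58A S62A.

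Most collagen chains were lower in each MYCN line than in SH-EP, by the most for COL21A1, COL5A1, and COL1A1. In DMSO, the sum over the 44 chains was 1721, 1688, and 1638 FPKM in SH-EP and 807, 765, and 756 in WT, with 859, 853, and 888 in T58A, 613, 630.4, and 622 in S62A, and 742, 686, and 721 in T58A S62A. No MYCN library reached the lowest SH-EP library. With limma on log2(FPKM + 0.1) as deposited and Benjamini-Hochberg adjusted p-values over 11575 genes, 12 of the 18 tested chains were lower in all 4 lines, where 13.4% of all tested genes were. Only COL27A1 was higher in all 4, against 19.2% of all genes, and 5 chains (COL6A1, COL6A2, COL7A1, COL8A1, and COL16A1) did neither. By line, 13 chains were lower and 3 higher in WT (22.6% and 31.6% of all genes), 13 and 5 in T58A (23.3% and 30.9%), 16 and 1 in S62A (23.4% and 31.0%), and 14 and 3 in T58A S62A (24.1% and 31.2%). The median log2 change of the 18 chains was -0.91 in WT, -0.93 in S62A, -0.55 in T58A, and -0.48 in T58A S62A, and that of all tested genes lay between 0.053 and 0.071. The 4 comparisons share the SH-EP libraries.

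The fibril-forming chains COL1A1 and COL5A1 had the largest mean falls after COL21A1. COL1A1 was at 247, 206, and 197 FPKM in WT, 166, 167, and 189.8 in T58A, 197, 195, and 201 in S62A, and 196, 156, and 192 in T58A S62A. All of these libraries lay below every SH-EP library, and the log2 change was from -1.56 in WT to -1.87 in T58A (SE 0.086, largest adjusted p = 2.63e-13). COL3A1 was at 199, 205, and 207 FPKM in WT, 284, 269, and 276 in T58A, 163, 182, and 166 in S62A, and 217, 223, and 202 in T58A S62A. Its change was smallest in T58A at -0.94 ± 0.045 and largest in S62A at -1.64 ± 0.045 (log2 ± SE, adjusted p = 1.47e-14 and 4.01e-19, limma).

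The type V chains, which help start and limit the width of type I fibrils, fell unequally. COL5A1 (chromosome 9, 137533649 to 137736689, plus strand) went from 24.0, 24.1, and 22.8 FPKM in SH-EP to 7.97, 7.61, and 8.05 in WT, 6.12, 6.26, and 7.02 in T58A, 5.64, 6.09, and 5.17 in S62A, and 5.49, 4.96, and 5.89 in T58A S62A. Averaged over the lines, its log2 change was -1.90 ± 0.072 (SE, adjusted p = 9.9e-17, limma). COL5A2 (chromosome 2, 189896624 to 190090038, minus strand) went from 147, 151, and 149.7 FPKM to 60.5, 70.1, and 71.9 in WT, 87.1, 84.7, and 81.3 in T58A, 49.0, 52.4, and 48.0 in S62A, and 68.9, 70.8, and 66.2 in T58A S62A, a mean change of -1.17 ± 0.040 (adjusted p = 1.42e-17, limma). For both chains the SH-EP libraries and those of the MYCN lines did not overlap.

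COL27A1 (chromosome 9, 116917817 to 117074791, plus strand), a fibrillar chain best known from cartilage, moved the other way. It was at 1.68, 1.54, and 1.46 FPKM in SH-EP, 2.56, 2.74, and 2.89 in WT, 5.07, 6.57, and 6.36 in T58A, 2.54, 2.70, and 2.62 in S62A, and 4.59, 3.95, and 3.91 in T58A S62A. Every library of a MYCN line lay above every SH-EP library, and the log2 change was 0.77 in WT, 0.71 in S62A, 1.87 in T58A, and 1.35 in T58A S62A (SE 0.11, largest adjusted p = 6.46e-06, limma). On spike-in scaled values, which refer each library to RNA added by cell number, this direction did not hold in every line, with changes of -0.45 in WT, -1.18 in S62A, 0.96 in T58A, and 0.56 in T58A S62A.

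The fibril-associated chains gave the widest spread. COL21A1 (chromosome 6, 55921388 to 56258892, minus strand) was at 9.82, 9.30, and 10.2 FPKM in SH-EP, 1.81, 1.64, and 1.87 in WT, 0.930, 0.655, and 1.03 in T58A, 0.350, 0.652, and 0.296 in S62A, and 0.0685, 0, and 0.0288 in T58A S62A, where 1 library was listed at 0. Its log2 change was -2.40 ± 0.25 in WT, -4.27 ± 0.25 in S62A, -3.37 ± 0.25 in T58A, and -6.25 ± 0.25 in T58A S62A. These values depend on the 0.1 FPKM added before the logarithm, and the mean over the 4 lines was -4.07 with it, -2.70 with 1 FPKM added, and -4.70 with 0.01. COL16A1 (chromosome 1, 32117864 to 32169920, minus strand) was at 1.03, 1.12, and 1.08 FPKM in SH-EP and rose in 3 lines, to 3.83, 3.20, and 3.42 in WT, 4.43, 4.24, and 5.29 in T58A, and 3.71, 3.995, and 3.61 in T58A S62A. In S62A it fell instead, to 0.576, 0.430, and 0.636 FPKM. The changes were 2.01 ± 0.15 in T58A and -0.88 ± 0.15 in S62A (log2 ± SE, adjusted p = 5.03e-11 and 2.47e-05, limma), and on spike-in scaled values the change in WT did not pass (0.41). COL12A1 (chromosome 6, 75794042 to 75915983, minus strand), which links fibrils to other matrix, fell from 30.7, 30.1, and 28.1 FPKM to 11.1, 12.3, and 12.8 in WT, 20.5, 18.3, and 19.1 in T58A, 11.2, 11.1, and 10.5 in S62A, and 14.3, 14.4, and 15.1 in T58A S62A.

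The basement membrane chains were lower in all 4 lines by smaller amounts. COL4A1 (chromosome 13, 110801310 to 110959504, minus strand) was at 35.7, 37.6, and 35.5 FPKM in SH-EP, 30.02, 33.0, and 32.6 in WT, 25.1, 26.7, and 25.7 in T58A, 22.9, 23.0, and 25.1 in S62A, and 28.6, 28.3, and 27.1 in T58A S62A, with log2 changes between -0.61 and -0.19. COL4A2 (chromosome 13, 110958159 to 111165556, plus strand) was at 31.8, 34.6, and 31.4 FPKM in SH-EP, 30.4, 28.0, and 27.2 in WT, 25.9, 25.8, and 28.7 in T58A, 27.4, 27.6, and 25.8 in S62A, and 29.1, 27.1, and 28.7 in T58A S62A, with changes between -0.28 and -0.19. The X-linked chains COL4A5 (chromosome X, 107683068 to 107940775, plus strand) and COL4A6 (chromosome X, 107398837 to 107682727, minus strand) were lower in all 4 lines too, with mean changes of -0.53 ± 0.080 and -0.68 ± 0.12 (log2 ± SE). COL4A3 and COL4A4, the partners of COL4A5 in the kidney filter, did not exceed 0.250 FPKM.

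COL4A1 and COL4A2 are read outward from a shared promoter, as are COL4A5 with COL4A6 and COL4A3 with COL4A4. In RefSeq on GRCh38.p14, 126 bases lie between the starts of COL4A1 and COL4A2, 379 between COL4A5 and the nearest start of COL4A6, and 418 between COL4A3 and COL4A4. The COL4A1 to COL4A2 interval is given below, because a pair of genes with nearly equal levels shares it, at chr13:110307158-110307283 on the plus strand, which is the COL4A2 strand, and capitals mark CCAAT and GGGCGG. The 250 bases upstream of COL4A5, at chrX:108439588-108439837 on the plus strand, are given for a pair at lower levels, with CCAAT in capitals on either strand. That second sequence was chosen after its values were seen.
COL4A1 to COL4A2 interval: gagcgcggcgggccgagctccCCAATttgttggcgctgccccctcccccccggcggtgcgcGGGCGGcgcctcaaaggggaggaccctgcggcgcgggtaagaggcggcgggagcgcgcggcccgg
COL4A5 upstream: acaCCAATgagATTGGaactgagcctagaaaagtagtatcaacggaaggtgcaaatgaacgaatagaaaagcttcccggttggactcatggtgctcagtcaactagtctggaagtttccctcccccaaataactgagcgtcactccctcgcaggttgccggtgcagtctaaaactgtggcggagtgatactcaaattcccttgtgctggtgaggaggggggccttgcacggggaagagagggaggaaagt
Windows of 300 bases around the gene starts were at hand for 32 of the 44 chains, in 44 windows, and for 13 of the 18 tested chains. COL1A1, COL1A2, and COL3A1 were among the chains without one. The E-box CACGTG, the letters that MYC family dimers prefer and which read the same on both strands, was in 0 of these 44 windows and in 7.26% of all 35116 windows. GGGCGG, on either strand, was in 24 of 44 collagen windows (54.5%) and 45.0% of all windows, and CCAAT, on either strand, in 14 of 44 (31.8%) and 34.6%. No match says only that these letters are not in the window.

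The type VI chains parted. COL6A3 (chromosome 2, 238232646 to 238322971, minus strand), the longest chain of the heterotrimer, went from 29.5, 30.3, and 27.9 FPKM in SH-EP to 13.01, 14.4, and 13.9 in WT, 15.5, 14.3, and 15.7 in T58A, 13.2, 12.3, and 13.1 in S62A, and 9.34, 8.66, and 8.53 in T58A S62A. This was a fall in all 4 lines, with the largest log2 change, -1.71, in T58A S62A (SE 0.049, adjusted p = 6.6e-19, limma). COL6A1 (chromosome 21, 47401684 to 47424964, plus strand) was at 70.6, 67.9, and 65.6 FPKM in SH-EP, 87.1, 77.8, and 76.7 in WT, 93.2, 98.3, and 98.9 in T58A, 50.3, 45.9, and 50.2 in S62A, and 62.8, 50.0, and 63.2 in T58A S62A, which put it above SH-EP in WT and T58A and below it in the other two, whereas on spike-in scaled values it was lower in all 4 lines. COL6A2 (chromosome 21, 47518026 to 47552762, plus strand) was at 58.8, 58.7, and 56.4 FPKM in SH-EP, 71.9, 60.9, and 58.7 in WT, 74.5, 80.5, and 78.6 in T58A, 27.6, 28.4, and 31.4 in S62A, and 42.9, 37.8, and 47.3 in T58A S62A, and the difference in WT did not pass (0.13 ± 0.073, adjusted p = 0.126, limma). Its rise in T58A (0.42) became a fall on spike-in scaled values (-0.54).

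COL8A1 (chromosome 3, 99357319 to 99518070, plus strand), a short-chain collagen of vessel walls and of the corneal endothelium, was at 24.0, 24.0, and 22.2 FPKM in SH-EP, 10.3, 11.9, and 11.8 in WT, 21.1, 17.8, and 19.7 in T58A, 8.35, 7.43, and 8.97 in S62A, and 31.7, 33.9, and 29.1 in T58A S62A. It was lower than SH-EP in 3 lines and higher in T58A S62A (0.43 ± 0.091, adjusted p = 0.000297, limma), where the spike-in scaled change was -0.41. COL18A1 (chromosome 21, 46825080 to 46933634, plus strand), whose C-terminal fragment is endostatin, fell from 42.7, 40.6, and 38.5 FPKM to 24.6, 22.8, and 23.1 in WT, 19.98, 23.6, and 25.7 in T58A, 26.3, 28.2, and 25.3 in S62A, and 19.96, 16.6, and 19.9 in T58A S62A. COL7A1 (chromosome 3, 48601506 to 48632762, minus strand), the anchoring fibril chain beneath epithelia, passed the test against SH-EP in T58A alone (0.61 ± 0.17, adjusted p = 0.00476, limma), at 1.09 ± 0.0668 and 1.72 ± 0.209 FPKM (n = 3, mean ± SD), and the spike-in scaled change there was -0.30.

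**Figure D2:**
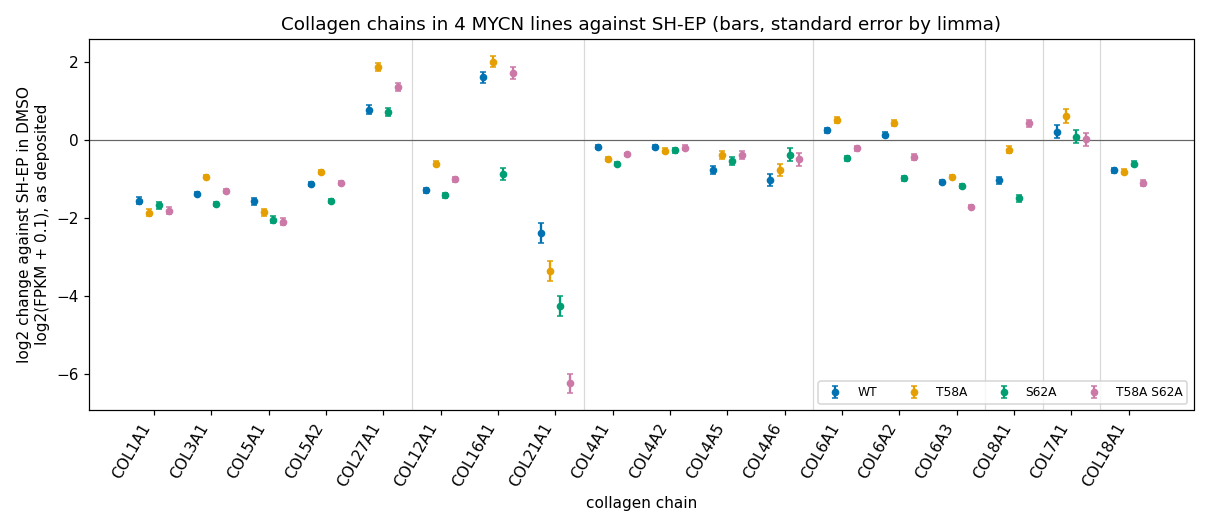
Log2 change of the 18 tested chains in the 4 MYCN lines against SH-EP in DMSO, on log2(FPKM + 0.1) as deposited, with points for the estimate and bars for the limma standard error (3 libraries per group). Most points lie below 0, and on these values COL27A1 lies above it in every line and COL16A1 is above it in 3 lines and at -0.88 in S62A.

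Scaling moved the sizes of these changes. On spike-in scaled values, where the median of all tested genes was -1.18 in WT, -1.88 in S62A, -0.89 in T58A, and -0.76 in T58A S62A, 15 chains were lower in all 4 lines and 0 higher, against 67.7% and 0.285% of all genes. COL6A1, COL6A2, and COL8A1 joined the 12 above. On either scale, 5 of the 18 chains lay above the median of all genes in WT, 2 in S62A, 5 in T58A, and 3 in T58A S62A. Spike-in scaling multiplies each library by 1 factor, which moves all its genes nearly alike in log2. The same counts on both scales are therefore not separate support.

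The mutant lines differed from the WT line in single chains, above all COL16A1, COL21A1, COL27A1, and COL8A1. On FPKM as deposited, 13 chains differed between T58A and WT (4 lower, 9 higher), 10 between S62A and WT (9 lower, 1 higher), and 13 between T58A S62A and WT (8 lower, 5 higher). Of all tested genes, 13.0% were lower and 10.7% higher in T58A, 14.0% and 10.1% in S62A, and 14.2% and 9.43% in T58A S62A. COL21A1, COL4A1, and COL5A1 were lower than WT in all 3 mutant lines, where 2.06% of all genes were, and 0 chains were higher in all 3 (1.75% of all genes). The COL21A1 call in T58A was lost with 0.01 FPKM added (-1.04, adjusted p = 0.107, limma) and on spike-in scaled values (-0.70, adjusted p = 0.189). The COL5A1 call in T58A was lost without T58A library a or b or WT library a or c, the COL6A3 call there without T58A library a or c or WT library a or c, and the COL4A5 call there without WT library a. The COL1A1 call was lost without WT library a in T58A and in T58A S62A, without T58A library a in T58A, and without T58A S62A library b in T58A S62A. On spike-in scaled values 0 chains were lower and 0 higher in all 3 (0.0864% and 0.0432% of all genes), and the median change of all genes was -0.71 in S62A, 0.28 in T58A, and 0.40 in T58A S62A. The 3 comparisons share the WT libraries.

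The change with the greatest size was that of COL16A1 in S62A, COL21A1 in T58A S62A, and COL27A1 in T58A. COL16A1 changed by -2.48 ± 0.15 in S62A (adjusted p = 1.44e-11, limma), while in T58A and T58A S62A the values were 0.41 ± 0.15 (adjusted p = 0.0505) and 0.12 ± 0.15 (adjusted p = 0.635). COL6A2 and COL6A1 fell in S62A too, with log2 changes of -1.13 and -0.72. COL21A1 changed by -3.85 ± 0.25 and COL8A1 by 1.47 ± 0.091 in T58A S62A, in opposite directions. The COL21A1 value was -1.43 with 1 FPKM added before the logarithm and -5.83 with 0.01, and that in S62A was -0.96 and -2.09. In T58A, COL27A1 changed by 1.10 ± 0.11, COL8A1 by 0.78 ± 0.091, and COL12A1 by 0.68 ± 0.066. These directions were the same on spike-in scaled values, at -3.12 for COL16A1 in S62A, -4.03 for COL21A1 and 1.90 for COL8A1 in T58A S62A, and 1.41 for COL27A1 in T58A.

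On FPKM as deposited, COL4A5 and COL4A6 were not called lower than WT in any mutant line, while COL4A1 was lower in all 3. The log2 change of COL4A1 from WT was -0.43 in S62A, -0.30 in T58A, and -0.18 in T58A S62A, on FPKM as deposited. COL4A5 was at 2.77, 3.32, and 3.43 FPKM in WT, 4.51, 4.01, and 4.003 in T58A, 3.57, 3.76, and 3.94 in S62A, and 4.12, 3.80, and 4.63 in T58A S62A, and was higher than WT in T58A and T58A S62A (0.39 and 0.39). COL4A6 was at 0.557, 0.530, and 0.620 FPKM in WT, 0.714, 0.685, and 0.694 in T58A, 0.917, 0.883, and 1.08 in S62A, and 0.893, 0.930, and 0.787 in T58A S62A, and was higher in S62A and T58A S62A (0.66 and 0.54). On spike-in scaled values the change of COL4A1 in T58A and T58A S62A did not pass, at 0.0043 and 0.24, while COL4A5 in S62A was lower at -0.44 (adjusted p = 0.0399, limma) and COL4A6 there was at 0.044 (adjusted p = 0.888). COL4A5 in T58A S62A was at 0.81 and COL4A6 at 0.95.

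**Figure D3:**
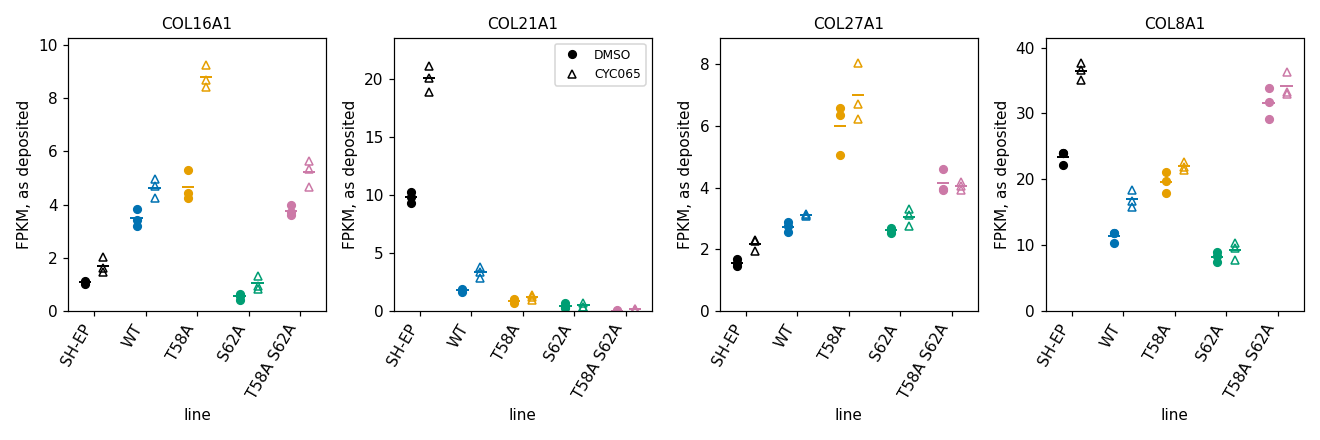
FPKM as deposited of COL16A1, COL21A1, COL27A1, and COL8A1 by line, with filled circles for DMSO, open triangles for CYC065, a point per library, and a bar at the mean of 3. COL16A1 is lowest in S62A, COL21A1 highest in SH-EP, COL27A1 highest in T58A, and COL8A1 in DMSO highest in T58A S62A.

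With CYC065, collagen chains were lower or did not pass on spike-in scaled values, with changes mostly smaller than that of the median gene, and most of them were higher in FPKM as deposited. On spike-in scaled FPKM, 5 of the 18 chains were lower than in DMSO in SH-EP, 18 in WT, 17 in S62A, 12 in T58A, and 10 in T58A S62A, and 0 were higher in any line, also at an unadjusted p under 0.05 in limma. Of all tested genes, 76.3% were lower in SH-EP, 93.7% in WT, 90.2% in S62A, 84.5% in T58A, and 76.4% in T58A S62A, and between 0.769% (WT) and 1.84% (T58A S62A) were higher, with 0.89% in SH-EP, 0.959% in S62A, and 1.24% in T58A. The median change of the chains was -0.32 in SH-EP, -0.92 in WT, -0.86 in S62A, -0.56 in T58A, and -0.44 in T58A S62A, and that of all genes was -1.08 in SH-EP, -1.58 in WT, -1.35 in S62A, -1.09 in T58A, and -0.98 in T58A S62A. The chains lay above the median of all genes in 18 of 18 cases in SH-EP, WT, and T58A, and in 17 of 18 in S62A and T58A S62A. The count in SH-EP was 2 without its CYC065 library c and 3 without its DMSO library c, and that in T58A S62A was 2 without its CYC065 library b or its DMSO library a. With 1 library left out, the count in T58A ran from 9 to 18. The spike-ins refer these values to the number of cells taken, but in bulk RNA fewer cells with a transcript and less of it per cell cannot be told apart. In DMSO, the spike-in factor of a library was 3.25, 3.08, and 3.32 in SH-EP, 1.65, 1.13, and 1.28 in WT, and 1.92, 1.20, and 1.94 in T58A. It was 0.818, 0.936, and 0.720 in S62A, and 2.02, 1.81, and 1.58 in T58A S62A. Such a spread moves all genes of a library together, and its part in the counts was not tested.

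COL1A1, COL27A1, COL6A3, and COL8A1 were lower in all 5 lines, where 69.8% of all genes were (0.484% higher). This count was 2 without SH-EP CYC065 library c, T58A S62A CYC065 library b, or T58A S62A DMSO library a. Spike-in scaled COL1A1 went from 2186, 1987, and 1971 in DMSO to 1512, 1595, and 1198 in CYC065 in SH-EP, and from 406, 232, and 251 to 148, 95.0, and 115 in WT. In T58A it went from 319, 199.8, and 369 to 162, 168, and 174, in S62A from 162, 183, and 145 to 68.4, 53.0, and 60.7, and in T58A S62A from 395, 282, and 303 to 221, 159, and 245. The treated and untreated libraries did not overlap in any line. The log2 change ran from -0.52 ± 0.22 in SH-EP (adjusted p = 0.034, limma) to -1.43 ± 0.22 in S62A (adjusted p = 1.52e-06).

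COL27A1 had the most negative mean change, -1.09 ± 0.086 over the 5 lines (log2 ± SE, adjusted p = 1.9e-12, limma), followed by COL8A1 at -1.01 ± 0.083, COL1A1 at -0.93 ± 0.099, and COL6A3 at -0.80 ± 0.082. Spike-in scaled COL27A1 went from 5.02 ± 0.397 to 2.89 ± 0.358 in SH-EP, from 3.67 ± 0.568 to 1.29 ± 0.161 in WT, and from 9.99 ± 2.25 to 5.01 ± 0.561 in T58A (n = 3, mean ± SD). The smallest mean changes were those of COL6A1 at -0.34 ± 0.086 and COL6A2 at -0.37 ± 0.084, and in SH-EP, T58A, and T58A S62A neither passed. COL21A1 in T58A S62A was the one chain and line with a positive value, 0.48 ± 0.35 (adjusted p = 0.2, limma), at levels near 0.1 FPKM. It was called higher with 0.01 FPKM added (1.47, adjusted p = 0.0246, limma) and without T58A S62A DMSO library a (0.81, adjusted p = 0.0474).

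As deposited, in FPKM that do not refer to cell number, each of the 18 chains had a positive mean change over the lines, from 0.21 (COL27A1) to 1.00 (COL6A1). By line, 18 chains were higher in SH-EP (42.7% of all genes), 17 in WT (37.0%), 14 in S62A (38.8%), 15 in T58A (38.1%), and 16 in T58A S62A (38.6%). On these values, 14 of 18 chains were higher in all 5 lines and 0 lower, where 28.5% of all genes were higher and 24.4% lower, and the median change of all genes was between 0.056 and 0.15. The summed FPKM of all genes was itself 1.52 (T58A) to 1.73 (SH-EP) times that in DMSO. As a share of that sum, the 44 chains were at 0.400% ± 0.0118 in DMSO and 0.425% ± 0.0098 in CYC065 in SH-EP, 0.165% ± 0.00279 and 0.175% ± 0.00548 in WT, 0.192% ± 0.00825 and 0.196% ± 0.0116 in T58A, 0.144% ± 0.00306 and 0.120% ± 0.00444 in S62A, and 0.158% ± 0.00763 and 0.152% ± 0.00344 in T58A S62A (SD, n = 3). The chains not higher in all 5 lines were COL1A1, COL8A1, COL21A1, and COL27A1. COL6A1 went from 70.6, 67.9, and 65.6 FPKM in DMSO to 147, 153, and 152 in SH-EP, from 87.1, 77.8, and 76.7 to 162, 147, and 144 in WT, and from 93.2, 98.3, and 98.9 to 176, 180.4, and 192 in T58A. In S62A it went from 50.3, 45.9, and 50.2 to 98.9, 97.6, and 97.0, and in T58A S62A from 62.8, 50.0, and 63.2 to 126, 116, and 119.8, so that no treated library overlapped an untreated one. COL3A1 went from 531 ± 10.2 to 1007 ± 22.7 FPKM in SH-EP and from 204 ± 4.49 to 350.3 ± 14.9 in WT (n = 3, mean ± SD). The direction of a CYC065 change thus depended on the scale. COL6A1 and COL6A2 had the highest mean changes and COL27A1, COL8A1, and COL1A1 were among the lowest on both scales. Scaling moves all genes of a library nearly alike, so this shared order is not separate support.

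**Figure D4:**
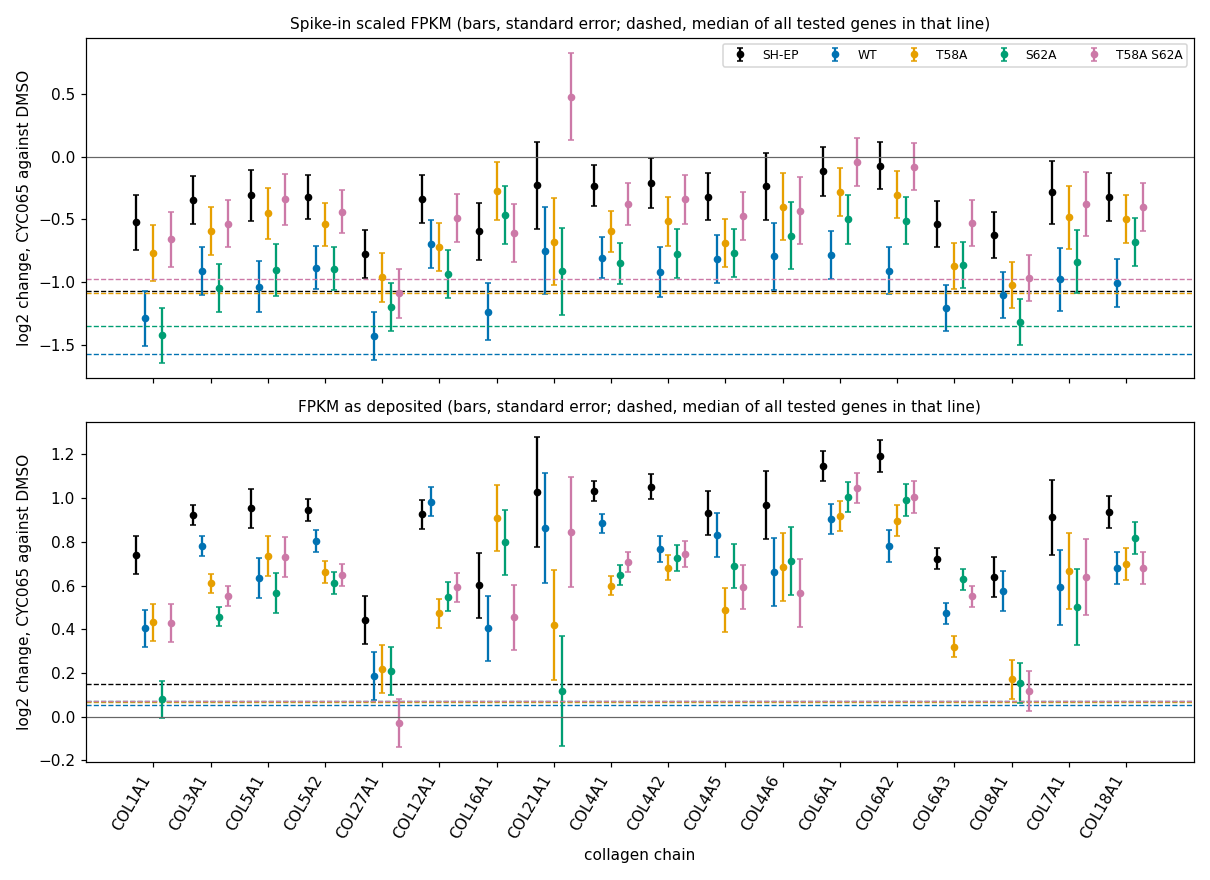
Log2 change of the 18 tested chains with CYC065 against DMSO in the 5 lines, on spike-in scaled values (top) and on FPKM as deposited (bottom), with bars for the limma standard error and dashed lines at the median of all tested genes in the line of that color. In the top panel nearly all points are below 0 and above their line's dashed median, and in the bottom panel nearly all are above both.

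The joint share of COL1A1 and COL3A1 within the collagen sum was lower with treatment in each line. They held 69.5% ± 0.407 of the summed FPKM of the 44 chains in DMSO and 67.0% ± 0.199 in CYC065 in SH-EP, 54.1% ± 0.940 and 50.7% ± 1.12 in WT, and 52.0% ± 0.793 and 48.8% ± 0.426 in T58A (n = 3, mean ± SD). The values were 59.2% ± 0.511 and 50.8% ± 0.821 in S62A, and 55.2% ± 0.529 and 50.9% ± 0.611 in T58A S62A. This share does not depend on the scaling, and each MYCN line had a lower joint share than SH-EP under both treatments. Taken alone, COL1A1 had a lower mean share with treatment in each line. COL3A1 did not, at 31.6% ± 1.28 in DMSO and 32.5% ± 1.01 in CYC065 in SH-EP, and 26.3% ± 1.47 and 27.9% ± 0.0805 in WT. Its mean share was lower with treatment in T58A, S62A, and T58A S62A. In DMSO the COL3A1 share in T58A, 31.9% ± 1.01, was not below that of SH-EP.

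The difference between a MYCN line's response and that of SH-EP passed for 1 chain in 1 line on spike-in scaled values. COL6A2 in WT responded by -0.84 ± 0.26 relative to SH-EP (log2 ± SE, adjusted p = 0.0402, limma), where 14.1% of all genes were lower and 1.82% higher in this contrast and their median was -0.51. Without 1 library the count in WT was 0 to 10, with 7 without SH-EP CYC065 library c or WT CYC065 library a, 10 without WT DMSO library b, 1 without WT DMSO library c, and 0 without any of the others. In T58A, S62A, and T58A S62A 0 chains passed in either direction, where 0.311% of all genes were lower and 2.35% higher in T58A, 1.72% and 3.11% in S62A, and 0.19% and 5.27% in T58A S62A. With limma at an unadjusted p under 0.05, 11 chains were lower in WT, 7 in S62A, and 0 in T58A and in T58A S62A. None was higher in any of these lines. The unadjusted counts were not set against a share of all genes. On FPKM as deposited, 4 chains had a lower response than in SH-EP in WT (18.1% of all genes), 8 in S62A (13.7%), 9 in T58A (14.0%), and 7 in T58A S62A (14.8%). Of these, COL4A2 passed in all 4 lines (4.79% of all genes), with -0.29 in WT, -0.33 in S62A, -0.37 in T58A, and -0.31 in T58A S62A.

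Ratios of chains that share a trimer were compared next, since a ratio within a library does not depend on the scaling. Each was taken per library as a ratio of FPKM. Two-sided exact permutation tests were run for 4 ratios, of the 12 MYCN libraries against the 3 SH-EP libraries in DMSO and of treatment within lines, with p-values adjusted over the 8 tests. The 12 MYCN libraries come from 4 lines and are not 12 independent samples of MYCN expression. Within 1 line, 3 libraries against 3 cannot go below p = 0.1 in an exact permutation test.

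The COL6A3/COL6A1 ratio was lower with MYCN and lower again with CYC065. It was 0.418, 0.446, and 0.426 in SH-EP in DMSO, 0.149, 0.185, and 0.182 in WT, 0.166, 0.146, and 0.158 in T58A, 0.263, 0.268, and 0.261 in S62A, and 0.149, 0.173, and 0.135 in T58A S62A. The difference of means was -1.25 on the log2 scale (adjusted p = 0.00586, exact permutation test, raw p = 0.0022, the smallest that 455 splits allow). In CYC065 the ratio was 0.321 ± 0.0135 in SH-EP, 0.127 ± 0.00988 in WT, 0.204 ± 0.00447 in S62A, 0.104 ± 0.00492 in T58A, and 0.108 ± 0.00220 in T58A S62A (n = 3, mean ± SD). Treated libraries lay below untreated ones in all 5 lines, with a log2 difference of -0.46 (adjusted p = 5e-06, exact permutation within lines, raw p = 6.25e-07, the smallest possible).

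COL5A1/COL5A2 differed with MYCN and not detectably with treatment. The ratio was 0.164, 0.160, and 0.152 in SH-EP in DMSO, 0.132, 0.109, and 0.112 in WT, 0.0703, 0.0739, and 0.0863 in T58A, 0.115, 0.116, and 0.108 in S62A, and 0.0797, 0.0701, and 0.0890 in T58A S62A. The log2 difference was -0.75 (adjusted p = 0.00586, exact permutation, the smallest possible raw p again), and that with CYC065 was -0.0026 (adjusted p = 0.957, exact permutation). COL4A1/COL4A2 was 1.11 ± 0.0246 in SH-EP, 1.12 ± 0.116 in WT, 0.881 ± 0.0809 in S62A, 0.966 ± 0.0692 in T58A, and 0.991 ± 0.0519 in T58A S62A in DMSO (n = 3, mean ± SD), and neither test passed (adjusted p = 0.134 for MYCN and 0.633 for CYC065, exact permutation). COL6A1/COL6A2 did not pass either (adjusted p = 0.105 and 0.238, exact permutation), although S62A stood at 1.82, 1.62, and 1.60 and SH-EP at 1.20, 1.16, and 1.16 in DMSO.

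**Figure D5:**
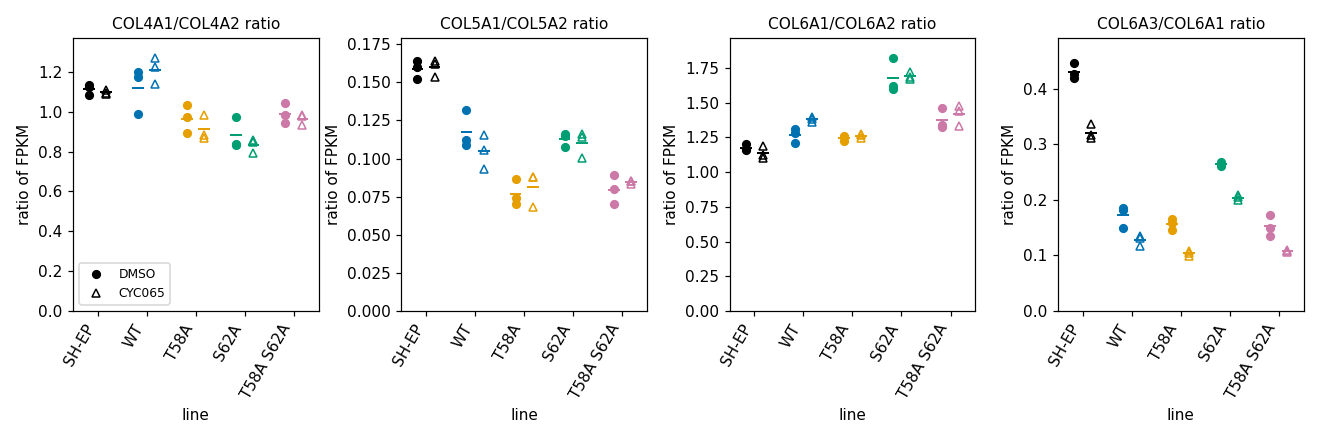
Ratios of FPKM of 4 pairs of chains by line, with filled circles for DMSO, open triangles for CYC065, a point per library, and a bar at the mean of 3. COL6A3/COL6A1 is between 0.418 and 0.446 in the SH-EP DMSO libraries, at or under 0.268 in those of the MYCN lines, and lower with CYC065 in each line.

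Genes that modify, fold, export, trim, cross-link, bind, or cleave collagen were mostly lower in the MYCN lines as well. Of 51 such genes on a list, 39 were tested, and 25 were lower than SH-EP in all 4 lines, where 13.4% of all genes were, and 1 was higher (19.2% of all genes). By role, the genes lower on average over the lines were 11 of 13 that hydroxylate or glycosylate the chains, 6 of 8 for folding and export, 2 of 4 for propeptide removal, 4 of 4 that cross-link, 6 of 7 receptors, and 3 of 3 that cleave collagen, where 26.3% of all tested genes were lower in this mean.

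ITGA1, the collagen-binding integrin alpha1 chain, had the largest fall. It went from 102, 98.4, and 105 FPKM in SH-EP to 14.3, 17.7, and 19.6 in WT, 15.7, 16.3, and 16.2 in T58A, 23.8, 23.4, and 21.4 in S62A, and 14.2, 14.9, and 13.9 in T58A S62A, a mean log2 change of -2.55 ± 0.057 (adjusted p = 5.28e-21, limma). The cross-linking enzymes LOXL2 and LOXL3 changed by -2.04 ± 0.050 and -1.84 ± 0.12 on average. TMEM38B, a channel of the endoplasmic reticulum needed for collagen folding, was higher in all 4 lines (0.93 ± 0.072), although on spike-in scaled values its mean change was -0.32. Among the MYCN lines, 2 of the 39 tested partners were higher than WT in all 3 mutant lines as deposited, where 1.75% of all genes were, and 0 were lower (2.06%). These were the collagen receptors DDR1 and DDR2, and on spike-in scaled values S62A was at -0.35 for DDR1 and -0.36 for DDR2.

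With CYC065, 7 of the 39 partners were lower in all 5 lines on spike-in scaled values (69.8% of all genes), and 0 were higher. CTAGE5 and MIA3, partners at the sites where bulky procollagen leaves the endoplasmic reticulum, changed by -2.10 ± 0.087 and -1.64 ± 0.080 on average, and CREB3L1, a transcription factor of collagen secretion, by -1.68 ± 0.12 (log2 ± SE). As deposited, 28 of the 39 partners were higher in all 5 lines (28.5% of all genes), but CTAGE5 and MIA3 were lower in all 5 (24.4% of all genes), with -0.81 and -0.30. CTAGE5 went from 3.45, 3.30, and 3.28 FPKM in DMSO to 2.08, 2.26, and 2.29 in SH-EP and from 3.16, 3.61, and 3.86 to 1.31, 2.46, and 2.06 in WT. As deposited, 0 of the 18 collagen chains were lower in all 5 lines.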

How the data were processed

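RNA-Seq of 5 lines in DMSO or CYC065 gave 30 libraries in 10 groups of 3, named after the sample labels. Libraries were strand-specific and poly(A)-selected, with spike-in RNA added by cell number. The authors aligned reads to hg19 with HISAT2 and deposited FPKM per gene from Cufflinks. The annotation is not given in the sources used here. The table holds 26228 genes and 92 spike-ins. The columns number the libraries from 0 and the labels from 1, so libraries were used as unnumbered replicates.

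The 11575 genes that averaged 1 FPKM or more entered 1 limma 3.58.1 model (R 4.3.3) of all 10 groups, with a mean-variance trend, after adding 0.1 FPKM and taking log2. A fold change on this scale understates that of low genes. P-values were adjusted by Benjamini-Hochberg over all 11575 genes, with a threshold of 0.05. Comparisons between lines used FPKM as deposited. CYC065 responses, and their differences from that of SH-EP, were compared on FPKM multiplied by a factor per library from the 55 spike-ins that averaged 1 FPKM or more. The other scale served as an alternative throughout. The test was tried on simulated data. No count test was run, since the values are FPKM. Ratios and exact permutation tests were computed with pandas 2.3.3 and numpy 2.4.6.

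Every tested chain was named. Values per library were given for chains at 20 FPKM or more in any group and for chains called in all lines of a comparison. Of 51 genes of collagen biosynthesis, receptors, and turnover, at most 3 per direction were named by mean change. DDR1 and DDR2, called in all 3 mutant lines, were named too. COL1A2, COL16A1, and the COL4A5 promoter were singled out after their values were seen. A marker on the lists is not reported here. Members and lists were chosen with earlier results of these data known. Gene positions are from GENCODE lifted to GRCh37, and promoter sequences from RefSeq on GRCh38.p14.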

Additional observations from a re-analysis of the deposited data

Results flagged for a closer look

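The response of COL6A2 to CYC065 differed between the WT line and SH-EP by -0.84 on the log2 scale of spike-in scaled values (adjusted p = 0.0402, limma), which was a difference between lines in the same comparison. Spike-in scaled COL6A2 went from 186 ± 5.35 to 178 ± 17.3 in SH-EP (n = 3, mean ± SD) and from 87.4 ± 27.2 to 45.6 ± 8.54 in WT. The corresponding differences were -0.44 in S62A, -0.23 in T58A, and -0.0099 in T58A S62A, and none of these passed. In the WT contrast 14.1% of all genes were lower, and the median of all genes was -0.51. With 1 library left out, 0 to 10 chains passed in WT. None passed there without the filter on low values or when only the groups compared were fitted.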

How the results depend on the processing

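A replicate block on the number that ends each column name, chosen after seeing the data, moved the chains with a differing CYC065 response from 1 to 7 in WT and from 0 to 1 in S62A, gave 11 chains lower than SH-EP in all 4 lines, and left the other counts within 1.5 times their value. The call of COL6A3 in T58A against WT was lost (0.14, adjusted p = 0.0551, limma). These numbers pair nothing in the labels, and same-numbered libraries of 2 groups compared had deviations from the group means that correlated at -0.119 to 0.149, with 0 of 12 pairs of groups over 0.1 at all 3 numbers. Spike-in scaling in place of FPKM as deposited, or the reverse, changed the most, by its own construction. Against WT it gave 17 chains past the threshold in S62A (17 lower) and 7 in T58A (7 higher). In T58A S62A it gave 6 (1 lower, 5 higher), and 0 were lower in all 3 lines. The median change of all genes there was -0.71 in S62A, 0.28 in T58A, and 0.40 in T58A S62A. These counts per line were not set against a share of all genes called. Against SH-EP, spike-in scaling gave 0 higher in all 4. FPKM as deposited gave 18 chains with CYC065 in SH-EP and 16 in T58A S62A, 0 lower and 14 higher in all 5 lines, and 4, 9, 8, and 7 chains with a differing response (WT, T58A, S62A, and T58A S62A in turn), 1 of them in all 4. Centring each library on its median gave 18 chains with CYC065 in SH-EP and 17 in T58A S62A, 0 lower and 17 higher in all 5 lines, and 3, 8, 8, and 7 chains with a differing response, 1 of them in all 4. The counts after centring and with the replicate block were not set against a share of all genes called.

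Fitting only the groups compared gave 8 chains in T58A and 7 in T58A S62A against WT, with 1 lower in all 3. With CYC065 it gave 8 chains in SH-EP, 6 in T58A, and 5 in T58A S62A, and for the response against SH-EP 0 in WT and 4 in S62A. Without the filter on low values, which adds chains under 1 FPKM to the test, 9 chains passed with CYC065 in SH-EP, 2 of them higher. In the response of WT 0 then passed. With a filter at 5 FPKM, 3 chains passed in SH-EP, and 0 were higher in all 4 lines, since COL27A1 was not tested. The causes of the other changes were not tested. Leaving out 1 library gave 2 to 5 chains with CYC065 in SH-EP, 9 to 18 in T58A, and 2 to 11 in T58A S62A. It also gave 2 to 4 lower in all 5 lines, 0 to 10 in the response of WT, and 2 to 4 lower than WT in T58A. The other counts of chains past the threshold stayed within 1.5 times their value. A count is of calls and does not say that the same chains were called. The counts in this paragraph were not set against a share of all genes called, so they say nothing particular to collagen chains.

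Directions that turned on spike-in scaled values were the means against SH-EP of COL16A1 (-0.059), COL27A1 (-0.029), COL6A1 (-1.25), and COL7A1 (-0.97). Against WT they were COL4A1 (0.0043) and COL5A1 (0.018) in T58A, COL18A1 (-0.52) and COL4A5 (-0.44) in S62A, and COL18A1 (0.10), COL1A1 (0.17), and COL4A1 (0.24) in T58A S62A. The mean log2 change with CYC065 turned from negative to positive for all 18 chains, as deposited and after centring in turn: COL27A1 0.21 and 0.41, COL8A1 0.33 and 0.49, COL1A1 0.42 and 0.56, COL6A3 0.54 and 0.70, COL16A1 0.63 and 0.86, COL21A1 0.65 and 1.08, COL7A1 0.66 and 0.91, COL3A1 0.66 and 0.81, COL12A1 0.70 and 0.86, COL4A5 0.71 and 0.89, COL5A1 0.72 and 0.89, COL4A6 0.72 and 1.00, COL5A2 0.73 and 0.88, COL18A1 0.76 and 0.91, COL4A1 0.77 and 0.93, COL4A2 0.79 and 0.95, COL6A2 0.97 and 1.12, COL6A1 1.00 and 1.15.

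Per line, the log2 difference from SH-EP of COL4A1/COL4A2 was 0.0037 in WT and -0.34 in S62A. For COL5A1/COL5A2 it was -0.44 in WT, -0.49 in S62A, -1.05 in T58A, and -1.002 in T58A S62A. For COL6A1/COL6A2 it was 0.11 in WT, 0.084 in T58A, and 0.51 in S62A, and for COL6A3/COL6A1 -0.70 in S62A, -1.46 in T58A, and -1.51 in T58A S62A. Depth is known only as relative values, and the shallower CYC065 libraries limit the precision of chains near 1 FPKM.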
